A study of Rattus norvegicus with 63 samples.

Results

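Complement C1q and C3 were followed in rat kidney through every probe set of the genes C1qa, C1qb, C1qc and C3 on both of the Affymetrix array types of a methylprednisolone time course. A probe set is a group of short probes against 1 transcript whose brightness is summarised as 1 signal. These are 4 of the 10621 genes named on the arrays. Chosen by gene symbol alone, 11 of the 24606 probe sets that are not controls belong to these 4 genes. The main array type carries 4 of them among 15866, 1 for each gene. The second type carries 7 among 8740, of which 2 belong to C1qb, 3 to C1qc and 2 to C3, and C1qa was not analysed there. After a filter on dim probe sets, 9 of the 11 were tested, which leaves out 2 of the C1qc probe sets of the second type.

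The kidneys came from rats left untreated, called 0 h, and from rats killed 0.25, 0.5, 0.75, 1, 2, 4, 5, 5.5, 6, 7, 8, 12, 18, 30, 48 or 72 h after they were given methylprednisolone, a synthetic glucocorticoid. The main type has 4 libraries at 0 h and 3 at each of the 16 later times, 52 in all, and the second type has 4 libraries for 0 h and 3 each for 2 h and 6 h. The labels give no dose, strain, sex, age or hour of day, and do not state whether each numbered sample is a rat of its own. The tests therefore measure how far the numbered samples scatter, and this scatter may be technical. No untreated rat was taken at a later time, so drug, elapsed time, handling and hour of day cannot be told apart.

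C1q is the recognition part of the classical complement pathway. Its A, B and C chains, encoded by C1qa, C1qb and C1qc, assemble into one molecule that binds antibody on a target, as well as dying cells and pentraxins, and it then activates the proteases C1r and C1s. C3 is the protein on which the classical, lectin and alternative pathways converge: its cleavage tags a surface for uptake and leads on to the terminal components. Macrophages and dendritic cells are the usual source of C1q, whereas C3 is made mainly by the liver, as an acute-phase protein, and also locally by tubular epithelium of the kidney and by myeloid cells.

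The DNA just before the start sites of 3 of the genes is shown because the C1q chains are neighbours in the genome that varied together here, while C3 showed the largest difference of the 4 genes from 2 to 4 h. In the rat assembly GRCr8, C1qb, C1qc and C1qa stand next to one another on chromosome 5 with no other gene listed between them, and C3 lies on chromosome 9. Each sequence holds the 250 bases before the RefSeq start site, read 5′ to 3′ on the minus strand, which is the strand of the gene. Capitals mark matches to a binding motif, the last letter of each sequence being position -1. The stretches lie at chr5:154419934-154420183 for C1qa, chr5:154407828-154408077 for C1qb and chr9:2201340-2201589 for C3. For C1qc only the name is given.
C1qa: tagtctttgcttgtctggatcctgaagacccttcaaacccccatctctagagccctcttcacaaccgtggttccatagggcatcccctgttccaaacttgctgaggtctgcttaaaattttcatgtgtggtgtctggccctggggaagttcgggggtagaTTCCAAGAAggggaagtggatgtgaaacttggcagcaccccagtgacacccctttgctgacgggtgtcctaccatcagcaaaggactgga
C1qb: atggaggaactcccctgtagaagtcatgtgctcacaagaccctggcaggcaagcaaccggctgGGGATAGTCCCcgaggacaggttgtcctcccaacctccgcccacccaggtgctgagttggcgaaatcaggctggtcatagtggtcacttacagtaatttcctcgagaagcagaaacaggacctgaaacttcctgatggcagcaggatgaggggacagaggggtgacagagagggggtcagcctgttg
C3: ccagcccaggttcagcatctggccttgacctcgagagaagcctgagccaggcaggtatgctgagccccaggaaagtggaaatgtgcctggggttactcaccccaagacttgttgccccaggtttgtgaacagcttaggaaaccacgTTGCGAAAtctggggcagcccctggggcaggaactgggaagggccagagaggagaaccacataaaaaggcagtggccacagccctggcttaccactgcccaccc

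The 6 motifs were searched on both strands as exact letter patterns, N standing for any base, and were picked with these sequences in view. The C3 stretch holds 1 match to the C/EBP pattern TTGCNNAA, at positions -104 to -97, a pattern found in 9.22% of 33469 RefSeq stretches of the same length. The C1qa stretch holds 1 match to the STAT pattern TTCNNNGAA, at -90 to -82, found in 7.67% of them. The C1qb stretch holds 2 overlapping matches to an NF-kappaB pattern, 1 on each strand and both within its capitals, between -187 and -177, found in 3.38%. The PU.1 pattern GAGGAAGT, found in 2.04% of the RefSeq stretches, a glucocorticoid receptor pattern (0.344%) and an interferon response pattern (3.41%) had no match in any of the 3 stretches. These letter matches describe the windows and were not tested as binding sites.

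The libraries carried strong signals for kidney: of 17 marker genes of nephron segments and vessels, 15 are on the main type and all 15 were bright enough to test, with a summed signal between 11066 and 22487 over the 52 libraries. All 7 genes of a glucocorticoid response list, Fkbp5 and Tsc22d3 among them, were higher than at 0 h when times were pooled as below. This held from 0.25 to 1 h, from 2 to 4 h and from 5 to 8 h. Of all tested probe sets, 0.662% passed there in either direction, 5.17% as higher and 4.98% as higher. At single times Fkbp5 had 49.9 to 103 at 0.25 h and 52.2 to 70.8 at 0.5 h, overlapping the 39.5 to 69.3 at 0 h. The libraries numbered 2 at 4 h, 2 at 5 h and 3 at 7 h on the main type, and 2 at 2 h on the second, stood apart from the rest by their correlation with other libraries, and results that rest on them are given with and without them. One of the 2 arrays averaged for library 1 at 5 h had 3′ over 5′ control ratios of 47.5 (GAPDH) and 27.9 (beta-actin), against 0.976 to 1.78 for GAPDH on every other array of the main type. Using its partner array alone changed no call on a C1q or C3 probe set. The GAPDH ratio moved with the windows: it was 1.17 to 1.78 from 2 to 4 h, against 1.07 to 1.27 at 0 h, and on the second type 1.20 to 1.39 at 2 h, against 0.936 to 1.22 at 0 h. Its part in the differences was not tested. Kidney tissue holds many cell types, and a change in the number of cells of a type cannot be told apart from a change in RNA per cell.

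C1qb, the B chain, showed the widest swing among the C1q chains. Its signal (probe set 1370215_at) was 75.1, 69.6, 50.5 and 112 in the 4 untreated libraries. Within the first hour it was 104, 130.2 and 129.9 at 0.25 h, 88.1, 132 and 127 at 0.5 h, 81.3, 131 and 131 at 0.75 h and 129, 139 and 136 at 1 h. The lowest library at 0.25, 0.5 and 0.75 h lay below the highest at 0 h, and at 1 h all 3 lay above it. No share of all tested probe sets was taken at that single time. Over the first hour 9 of 12 libraries lay above it, and the groups overlapped. It reached 179.9, 214 and 207 at 2 h and 210.3, 255 and 272 at 4 h, the highest mean of the course. From 5 to 8 h the signal was 179, 209 and 144, then 218, 219.8 and 264 at 5.5 h, 204, 246 and 231 at 6 h, 202, 197 and 311 at 7 h and 301, 185 and 133 at 8 h. All 21 libraries from 2 to 8 h therefore exceeded every untreated one. Taken by window, this held for 5.96% of tested probe sets from 2 to 4 h and for 1.6% from 5 to 8 h. At 12 h the values were 203, 86.8 and 89.4, and at 18 h they were 53.8, 96.4 and 96.1. They were 229.5, 109 and 124 at 30 h, 164, 162 and 103 at 48 h and 110.1, 74.1 and 85.5 at 72 h. The late libraries overlapped the untreated range, with the first library at 12 and at 30 h far above the other 2 of its time.

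C1qc, the C chain (1373025_at), had 136, 145, 118 and 175 at 0 h. It had 164, 224 and 240.3 at 0.25 h, 162, 242 and 213 at 0.5 h, 246, 216 and 214 at 0.75 h and 218, 251 and 231 at 1 h, so that 10 of the 12 libraries of the first hour exceeded every untreated one. The signal was 261, 223 and 269 at 2 h and 280.5, 396 and 349.7 at 4 h, again the highest mean. It then was 256, 332 and 293 at 5 h, 246, 208 and 310.3 at 5.5 h, 209.8, 367 and 324 at 6 h, 251, 248 and 387 at 7 h and 373, 228 and 213 at 8 h. All 21 of these libraries exceeded every untreated one. Taken by window, this held for 5.96% of tested probe sets from 2 to 4 h and for 1.6% from 5 to 8 h. Values of 333, 154 and 131 at 12 h and 143, 139 and 154 at 18 h lay mostly within it, library 1 at 12 h being the exception. C1qc had 259, 140.0 and 253 at 30 h, 302, 272 and 253 at 48 h and 189, 143 and 159 at 72 h. All 3 libraries at 48 h exceeded every untreated one, a description for which no share of all tested probe sets was taken. Over the window from 30 to 72 h 6 of 9 did, and the groups overlapped.

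C1qa, the A chain (1376652_at), had 176, 163, 79.0 and 164 at 0 h, where library 3 lay far below the others. That library was also the lowest of the 4 for C1qb and for C1qc, and the highest for C3. In the first hour C1qa had 178, 263 and 243 at 0.25 h, 209.6, 242 and 234 at 0.5 h, 183, 183 and 193 at 0.75 h and 259.6, 247 and 193 at 1 h. It was 292, 265 and 266 at 2 h and 300.3, 319 and 287 at 4 h, so that all 18 libraries up to 4 h exceeded every untreated one. Taken by window, this held for 0.483% of tested probe sets in the first hour and for 5.96% from 2 to 4 h. It was then 205, 314 and 177 at 5 h, 287, 238 and 298 at 5.5 h, 235, 171 and 221 at 6 h, 266, 204 and 311 at 7 h and 347, 171 and 148 at 8 h. At 6 and 8 h the range overlapped that of the untreated libraries, and at 5, 5.5 and 7 h it did not. No share of all tested probe sets was taken at these single times. Over the window from 5 to 8 h 12 of 15 libraries exceeded every untreated one, and the groups overlapped. C1qa was 265, 173 and 137 at 12 h, 149, 112 and 160.4 at 18 h, 291, 146 and 259.5 at 30 h, 269, 261 and 152 at 48 h and 223, 158 and 158 at 72 h.

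C3 (1368000_at) had a tight untreated level of 90.0, 78.9, 97.6 and 86.9. In the first hour it was 85.2, 299 and 149 at 0.25 h, 120.4, 176 and 173 at 0.5 h, 134, 115 and 143 at 0.75 h and 94.1, 307 and 133 at 1 h. Library 2 at 0.25 h and library 2 at 1 h were about as high as each other and well above the rest of that hour. The signal then stood at 502, 489 and 573 at 2 h and at 415, 556 and 523 at 4 h, the 2 highest means on the log2 scale, with close agreement between libraries. The next times were 169, 2244 and 132 at 5 h, 276, 351 and 399 at 5.5 h, 392, 122 and 141 at 6 h, 266, 265 and 1149 at 7 h and 1335, 113 and 84.1 at 8 h. In 4 of these times 1 library stood far above the other 2: the highest over lowest ratio was 16.9 at 5 h, 3.22 at 6 h, 4.33 at 7 h, then 15.9 at 8 h, whereas at 5.5 h it was 1.45. By plain averages of the signals C3 was highest at 5 h (848) and 7 h (560.2), with 521 at 2 h. C3 was 297, 98.1 and 80.1 at 12 h, 111, 129.8 and 185 at 18 h, 138, 111 and 283 at 30 h, 144, 100.1 and 122 at 48 h and 100.1, 98.7 and 114 at 72 h. Library 1 at 12 h was high for all 4 genes compared with the other 2 libraries of its time.

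**Figure D1:**
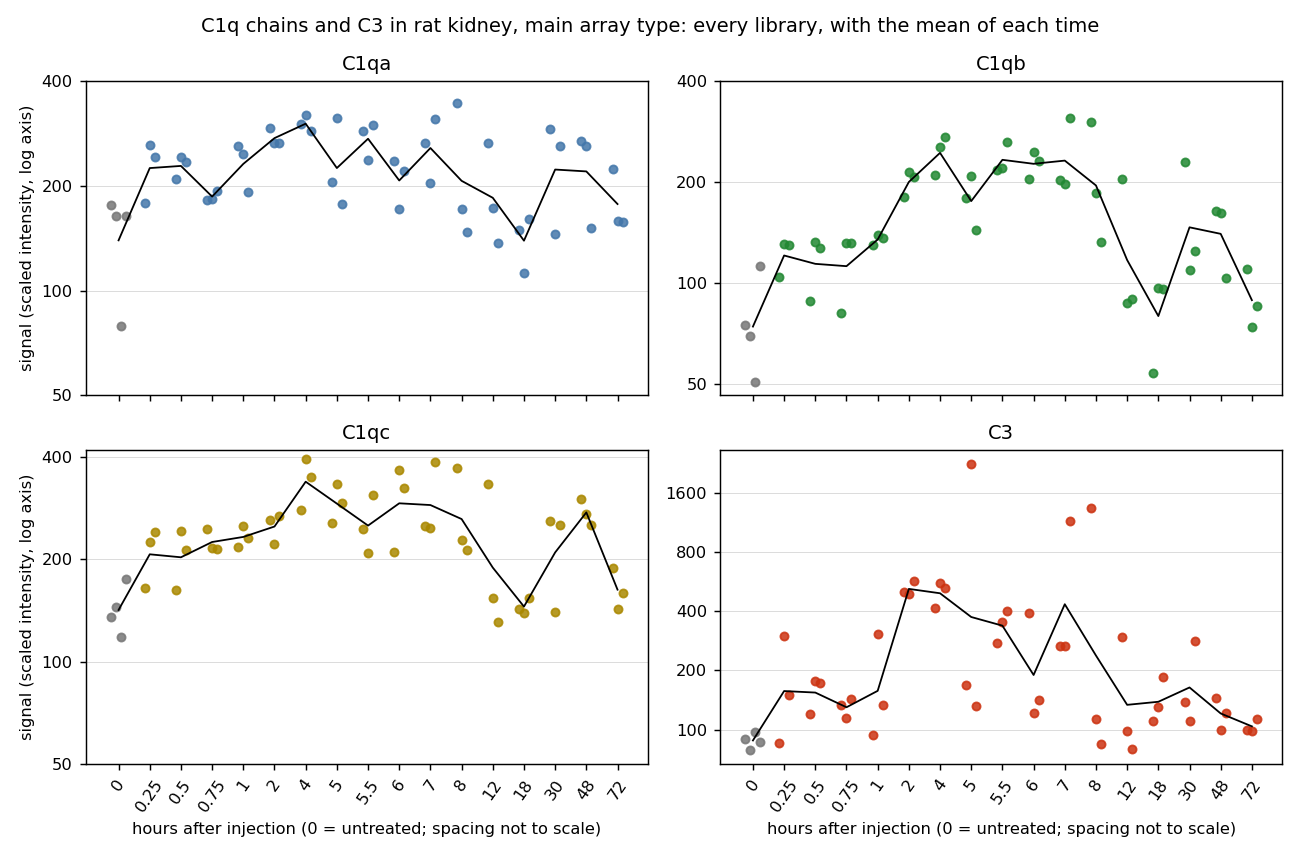
Signal (scaled intensity, log axis) of C1qa, C1qb, C1qc and C3 on the main array type against hours after injection, untreated libraries in grey at 0 h. Each point is 1 library and the line joins the mean of each time, taken on the log2 scale. The 3 C1q chains peak at 4 h, C3 averages 520.0 at 2 h and 494 at 4 h, and single C3 libraries at 5, 7 and 8 h reach 2244, 1149 and 1335.

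Ordered by the mean taken on the log2 scale and turned back into a signal, the times ran from 302 at 4 h down to 139 at 18 h for C1qa, from 244 at 4 h to 74.0 at 0 h for C1qb, from 339 at 4 h to 142 at 0 h for C1qc and from 520.0 at 2 h to 88.1 at 0 h for C3. The 0 h level was the lowest of 17 for C1qb, C1qc and C3, and the second lowest for C1qa. Neighbours in these orders mostly did not differ beyond their spread. Of 16 gaps between neighbouring times, 1 exceeded the SD of both times for C1qa (4 h over 2 h), 1 for C1qb (6 h over 2 h), 1 for C3 (72 h over 0 h) and 0 for C1qc. The median SD within a time was 0.28 on the log2 scale for C1qa, 0.30 for C1qb, 0.25 for C1qc and 0.36 for C3, and the largest SD for C3 was 2.22, at 5 h.

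For tests, neighbouring times were pooled into 5 windows, and signals were taken as log2 after adding a small constant (the pseudocount, 7.63 on the main type). Differences below are log2 differences between means with their standard error from limma, a linear model fitted to all tested probe sets, and p-values are adjusted over all 9520 of them with a threshold of 0.05. All comparisons with 0 h share the same 4 untreated libraries. From 2 to 4 h all 4 probe sets passed and were higher, where 5.17% of all tested probe sets passed in that direction. C3 was higher by 2.43 ± 0.56 (adjusted p = 0.00265), C1qb by 1.49 ± 0.22 (adjusted p = 8.11e-06), C1qa by 1.01 ± 0.22 (adjusted p = 0.00129) and C1qc by 1.00 ± 0.19 (adjusted p = 0.000416). For each of the 4 genes all 6 libraries of this window exceeded all 4 untreated ones, which held for 5.96% of tested probe sets. None of these calls was lost when any 1 library was left out, and all 4 held without the libraries that stand apart, at 2.38 for C3, 1.47 for C1qb, 0.99 for C1qa and 0.94 for C1qc.

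In the window from 5 to 8 h all 4 passed again and were higher, against 4.98% of tested probe sets in that direction. C1qb was higher by 1.42 ± 0.20 (adjusted p = 1.14e-06) and C1qc by 0.93 ± 0.17 (adjusted p = 0.000144), and for both all 15 libraries exceeded every untreated one, which held for 1.6% of tested probe sets. C3 was higher by 1.69 ± 0.49 (adjusted p = 0.0191), with 14 of 15 libraries above the untreated range and library 3 at 8 h within it. C1qa was higher by 0.71 ± 0.19 (adjusted p = 0.0105), with 12 of 15 libraries above the range. The C1qa call rested on the low untreated library 3, without which the difference was 0.45 (adjusted p = 0.186). The C3 call was lost without untreated library 1, 2 or 4 (adjusted p = 0.0542, 0.0653 and 0.0544), while the difference stayed between 1.44 and 1.84 whichever library was left out. Without the libraries that stand apart, 2 of which are the 5 h and 7 h libraries with very high C3, the C3 difference was 1.30 (adjusted p = 0.028). In a fit of only the times compared, neither C3 (adjusted p = 0.15) nor C1qa (adjusted p = 0.0579) passed. Without the libraries that stand apart C1qb was higher by 1.36, C1qc by 0.87 and C1qa by 0.63 (adjusted p = 0.0255).

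In the first hour 0 of 4 probe sets passed with limma, where 0.662% of tested probe sets did. C1qa was higher by 0.61 ± 0.19 (adjusted p = 0.221), C1qb by 0.64 ± 0.20 (adjusted p = 0.199), C1qc by 0.58 ± 0.17 (adjusted p = 0.163) and C3 by 0.71 ± 0.50 (adjusted p = 0.868). The unadjusted p was under 0.05 for the 3 C1q chains, as for 634 of the 9520 tested probe sets. All 12 C1qa libraries of this hour exceeded all 4 untreated ones, which held for 0.483% of tested probe sets.

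From 12 to 18 h 0 of 4 probe sets passed with limma, and 0.389% of tested probe sets did. The differences were 0.19 ± 0.22 for C1qa, 0.35 ± 0.22 for C1qb, 0.21 ± 0.19 for C1qc and 0.59 ± 0.56 for C3, none with an unadjusted p under 0.05. From 30 to 72 h no probe set of any gene passed (0%), and the differences from 0 h were 0.54 ± 0.20 for C1qa, 0.67 ± 0.21 for C1qb, 0.55 ± 0.18 for C1qc and 0.50 ± 0.52 for C3. The adjusted p was 0.864 for each C1q chain and 0.951 for C3, and the unadjusted p was under 0.05 for the 3 C1q chains, as for 517 tested probe sets. For C3 all 9 late libraries nevertheless exceeded all 4 untreated ones, at 98.7 to 283 against 78.9 to 97.6, which held for 0.242% of tested probe sets.

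**Figure D2:**
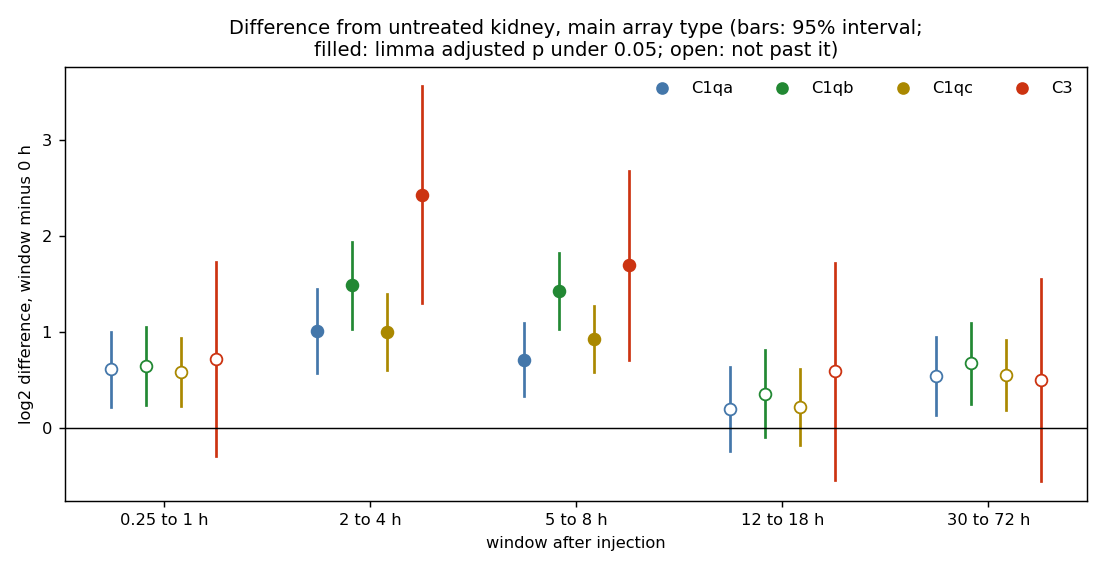
Log2 difference of each window from untreated kidney on the main array type, with its 95% interval, for C1qa, C1qb, C1qc and C3. Filled points have an adjusted p under 0.05: all 4 genes from 2 to 4 h and from 5 to 8 h, and 0 of 4 in the other 3 windows. The C3 and C1qa calls from 5 to 8 h did not hold in a fit of only the times compared.

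The windows were also compared without the untreated libraries. From 2 to 4 h, set against 30 to 72 h, 3 of 4 probe sets passed and were higher, where 8.88% of tested probe sets did. C3 was higher by 1.93 ± 0.46 (adjusted p = 0.00217), with all 6 libraries above all 9 late ones, which held for 3.6% of tested probe sets, and C1qb by 0.82 ± 0.18 (adjusted p = 0.00125). C1qc was higher by 0.45 ± 0.16 (adjusted p = 0.0417) and C1qa by 0.47 ± 0.18 (adjusted p = 0.0547), 1 on each side of the threshold. Without arrays of title letter b or c C1qb did not pass (0.66, adjusted p = 0.0737), and without the libraries that stand apart C1qc did not (0.39, adjusted p = 0.102). The C1qc call was lost without any 1 of 9 libraries (libraries 1 and 3 of 2 h, 2 and 3 of 4 h, 2 of 30 h, 2 and 3 of 48 h, 2 and 3 of 72 h), at an adjusted p of up to 0.122. C1qa passed without any 1 of 9 others (library 3 of 0 h, 2 of 5 h, 1 of 8 h, 1 of 12 h, 1 and 3 of 30 h, 1 and 2 of 48 h, 1 of 72 h), at an adjusted p down to 0.0339.

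From 5 to 8 h, set against 30 to 72 h, 3 of 4 passed and were higher, against 12.5% of tested probe sets. C1qb was higher by 0.75 ± 0.15 (adjusted p = 0.000146), C3 by 1.20 ± 0.37 (adjusted p = 0.0129) and C1qc by 0.38 ± 0.13 (adjusted p = 0.024), while C1qa differed by 0.17 ± 0.14 (adjusted p = 0.399). The C3 call was lost without arrays of letter b or c (adjusted p = 0.0837) and in a fit of only the times compared (adjusted p = 0.064). Without the libraries that stand apart C1qc did not pass (0.32, adjusted p = 0.0662). The C1qc call was also lost without library 2 at 30 h (0.29, adjusted p = 0.1) or library 2 at 72 h (0.35, adjusted p = 0.0553). From 12 to 18 h, set against 30 to 72 h, 0 of 4 passed with limma, where 0.914% did. The differences were -0.34 for C1qa, -0.32 for C1qb, -0.33 for C1qc and 0.09 for C3, with an unadjusted p under 0.05 for C1qc alone.

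Set against the first hour, the window from 5 to 8 h had 3 of 4 probe sets that passed and were higher, against 8.9% of tested probe sets. C1qb was higher by 0.78 ± 0.13 (adjusted p = 3.16e-05), with 14 of 15 libraries above all 12 of the first hour. C3 was higher by 0.98 ± 0.34 (adjusted p = 0.0361) and C1qc by 0.34 ± 0.12 (adjusted p = 0.0344), whereas C1qa differed by 0.10 ± 0.13 (adjusted p = 0.668). The C3 call was lost without any 1 of 11 libraries (1 and 3 of 0.25 h, 1 of 0.5 h, 2 of 0.75 h, 1 and 3 of 1 h, 2 of 5 h, 3 of 5.5 h, 1 of 6 h, 3 of 7 h, 1 of 8 h), at an adjusted p of up to 0.0786. The C1qc call was lost without any 1 of 11 as well (1 of 0.25 h, 1 of 0.5 h, 2 and 3 of 0.75 h, 1 of 1 h, 2 of 5 h, 3 of 5.5 h, 2 and 3 of 6 h, 3 of 7 h, 1 of 8 h), at an adjusted p of up to 0.0789. Without the libraries that stand apart the C3 difference was 0.58 (adjusted p = 0.144) and that of C1qc 0.28 (adjusted p = 0.0933).

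Over all 16 times at once, a moderated F test passed for all 4 probe sets, as for 16.1% of those tested. The adjusted p was 6.16e-06 for C1qb and 0.00142 for C1qc. It was 0.049 for both C1qa and C3, and leaving out 1 library took it past the threshold in 37 of 52 cases for C1qa and in 39 of 52 for C3.

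On the second array type, whose signals were scaled separately, C1qb has 2 probe sets, both well above the filter. Values for this type come from fits without a block for library number, which changed no call when it was added. The first (X71127_at) had 301, 258 and 367 at 2 h and 345, 389 and 512 at 6 h, against 123, 111, 75.7 and 142 at 0 h. The second (X71127_g_at) had 157, 233 and 125 at 2 h and 179, 198 and 233 at 6 h, against 62.7, 60.0, 46.4 and 93.3 at 0 h. In both, every injected library exceeded every untreated one, which held for 10.9% of tested probe sets at 2 h and for 6.79% at 6 h. Library 3 was the lowest and library 4 the highest at 0 h in both, as on the main type. The labels do not state whether same-numbered libraries of the 2 types come from the same RNA. The second type may therefore not be an independent repeat of the main type. Both passed at 2 h, where 4.82% of 5244 tested probe sets passed as higher, by 1.44 ± 0.25 (adjusted p = 0.0052) and 1.34 ± 0.27 (adjusted p = 0.012). Both also passed at 6 h, where 1.56% did, by 1.86 ± 0.25 (adjusted p = 0.00105) and 1.61 ± 0.27 (adjusted p = 0.0062). Without library 2 of 2 h, which stands apart, the 2 h differences were 1.56 (adjusted p = 0.00434) and 1.10 (adjusted p = 0.027).

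Of the C1qc probe sets of the second type, 1 was tested (rc_AA891576_s_at), with 167, 286 and 193 at 2 h and 148, 212 and 208 at 6 h, against 131, 192, 138 and 156 at 0 h. The ranges overlapped at both times, and the differences of 0.45 ± 0.24 at 2 h (adjusted p = 0.236, 95% interval -0.07 to 0.97) and 0.28 ± 0.24 at 6 h (adjusted p = 0.797, 95% interval -0.24 to 0.81) did not pass. On the main type, in a table scaled separately, the C1qc difference from 2 to 4 h was 1.00 with a 95% interval from 0.60 to 1.39. That window pools 2 h, with a mean signal of 250, and 4 h, with 339, against 142 at 0 h, so the times are unlike. The other 2 (rc_AA891576_i_at and rc_AA891576_r_at) stayed below the filter signal of 25.3 in every library, at 0.891 to 19.2, and were not tested.

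C3 has 2 probe sets on the second type. The first (M29866_s_at) had 193, 289.9 and 214 at 2 h and 148, 11.8 and 18.6 at 6 h, against 3.45, 6.27, 4.08 and 4.47 at 0 h. The second (X52477_at) had 139, 115 and 162 at 2 h and 106, 37.3 and 43.4 at 6 h, against 23.1, 9.12, 25.2 and 24.7 at 0 h. In both, the values after injection lay above those at 0 h, and at 6 h library 1 stood far above the other 2. Library 1 was also the high C3 library at 6 h on the main type, where the 3 values were 392, 122 and 141. All untreated values lay below the filter signal of 25.3, so both probe sets passed the filter through their later libraries only. Their differences from 0 h, and the lack of overlap with it, are therefore given as a description, with no test. At 2 h they were 4.85 and 2.62, and 3.69 and 2.16 with a constant 4 times as large, so that their size depends on the constant. At 6 h they were 2.20 and 1.38.

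Between 6 h and 2 h neither C1qb probe set passed with limma, nor did that of C1qc, where 1.43% of all tested did. The C3 differences were -2.64 and -1.24. They are a description with no test, because both probe sets passed the filter through their later libraries only. Without library 1 at 6 h the first was -3.66, the 2 libraries left at 6 h lying below the filter signal. C1qb differed between 6 h and 2 h by 0.42 ± 0.26 and 0.28 ± 0.29, and C1qc by -0.16 ± 0.25. The moderated F test over the 3 times passed for both C1qb probe sets, as for 7.28% of those tested, and not for C1qc (adjusted p = 0.43).

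**Figure D3:**
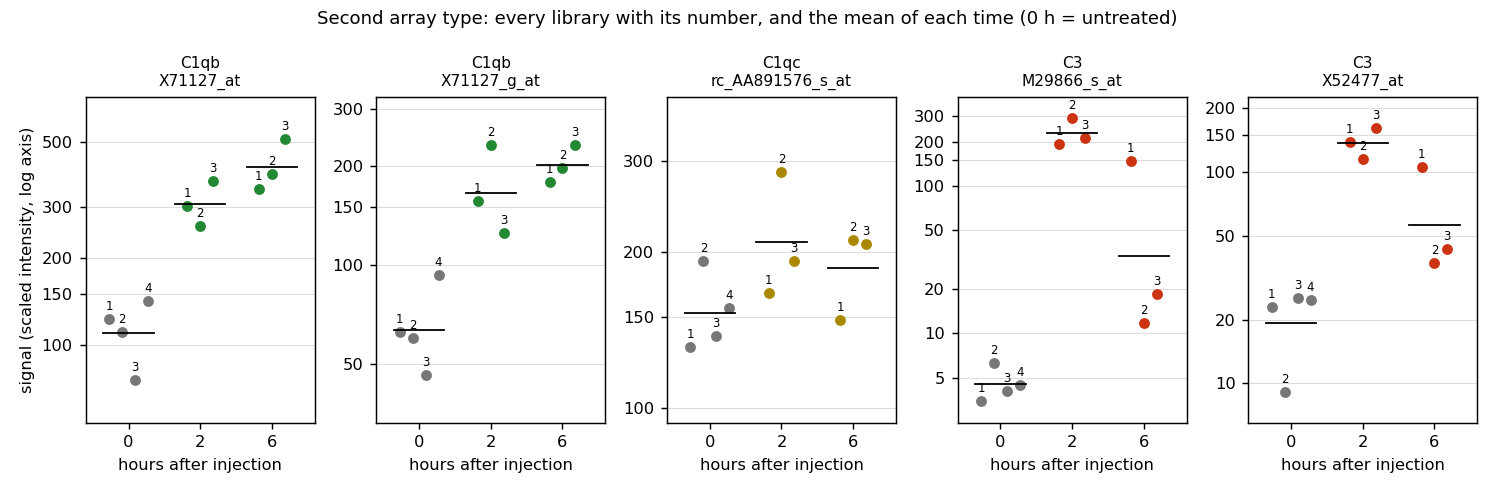
Signal (scaled intensity, log axis) of the 5 tested probe sets of C1qb, C1qc and C3 on the second array type at 0, 2 and 6 h, 1 point per library with its number and a bar at the mean of each time. Both C1qb probe sets are higher at 2 and 6 h than at 0 h, C1qc overlaps, and C3 is high in all 3 libraries at 2 h and in library 1 at 6 h.

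The C1q chains varied together across the 52 libraries of the main type. As a description, the correlation of log2 signals was r = 0.86 between C1qb and C1qc, 0.77 between C1qa and C1qb and 0.76 between C1qa and C1qc. These points share their arrays, their scaling and the time course. After the mean of each time was taken off, the values were 0.74, 0.70 and 0.68. C3 was less close to the chains, at 0.72 with C1qa, 0.70 with C1qb and 0.65 with C1qc over libraries, and 0.63, 0.50 and 0.52 within times.

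By the same measure, the tested genes most like each member were listed, 5 for each, without the members themselves. For C1qa they were Fcgr3a (r = 0.82), an Fc receptor for antibody, Rac2 (0.81), a small GTPase of blood cells, Fcer1g (0.80), the signalling chain shared by Fc receptors, S100a9 (0.77), a calcium-binding protein of neutrophils and monocytes, and Cp (0.77), which encodes ceruloplasmin. For C1qb they were Mgp (0.86), a matrix protein that inhibits calcification, Fcgr3a (0.83), Cp (0.82), Tacc1 (0.81) and Pla1a (0.80), a phospholipase. For C1qc they were Fcgr3a (0.80), C1s (0.78), Fcer1g (0.77), Mgp (0.77) and Vim (0.74), which encodes vimentin of mesenchymal cells. For C3 they were Pla1a (0.88), Lcn2 (0.87), which encodes the injury and acute-phase protein lipocalin 2, Cp (0.87), Fgg (0.85), the gamma chain of fibrinogen, and Lpl (0.83), lipoprotein lipase. Fcgr3a stood on the lists of all 3 C1q chains and not on that of C3. Within times, Fcgr3a kept r = 0.79 with C1qa, 0.78 with C1qb and 0.71 with C1qc, and Lcn2 kept 0.79 with C3. Tacc1 had only 0.33 with C1qb within times.

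The high C3 libraries were largely those with high Fga, the alpha chain of fibrinogen, and high Lcn2. Of the 10 libraries with the most C3, 8 were among the 10 with the most Fga, 9 among the 10 with the most Lcn2 and 5 among the 10 with the most C1qb. At 5 h, library 2 had 4459 for Fga and 3970.3 for Lcn2, while libraries 1 and 3 had 48.5 and 30.3 for Fga and 198 and 213 for Lcn2. At 7 h library 3 had 3999 for Fga and 3122 for Lcn2, and at 8 h library 1 had 2652 and 3158. C1qb in those 3 libraries was 209, 311 and 301, which was the highest of its time in each. Across libraries C3 had r = 0.87 with Lcn2, or 0.79 within times, and r = 0.79 with Fga, or 0.78 within times. C1qb had 0.74 with Lcn2, or 0.49 within times, and 0.54 with Fga, or 0.35 within times. With Lcn2, C1qa had 0.72, or 0.60 within times, and C1qc 0.66, or 0.44 within times. With Fkbp5, a direct glucocorticoid receptor target, C1qb had r = 0.75 over libraries, 0.89 over the 17 time means and -0.06 within times. In the same order C3 had 0.61, 0.86 and 0.06 with Fkbp5, C1qc 0.62, 0.79 and -0.14, and C1qa 0.44, 0.63 and -0.10. Library 2 at 2 h was an exception among the early libraries: Fga was 523 there, against 2139 and 2509 in the other 2, and Lcn2 390.3, against 1410.0 and 1540.0, while C3 was 489, against 502 and 573.

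**Figure D4:**
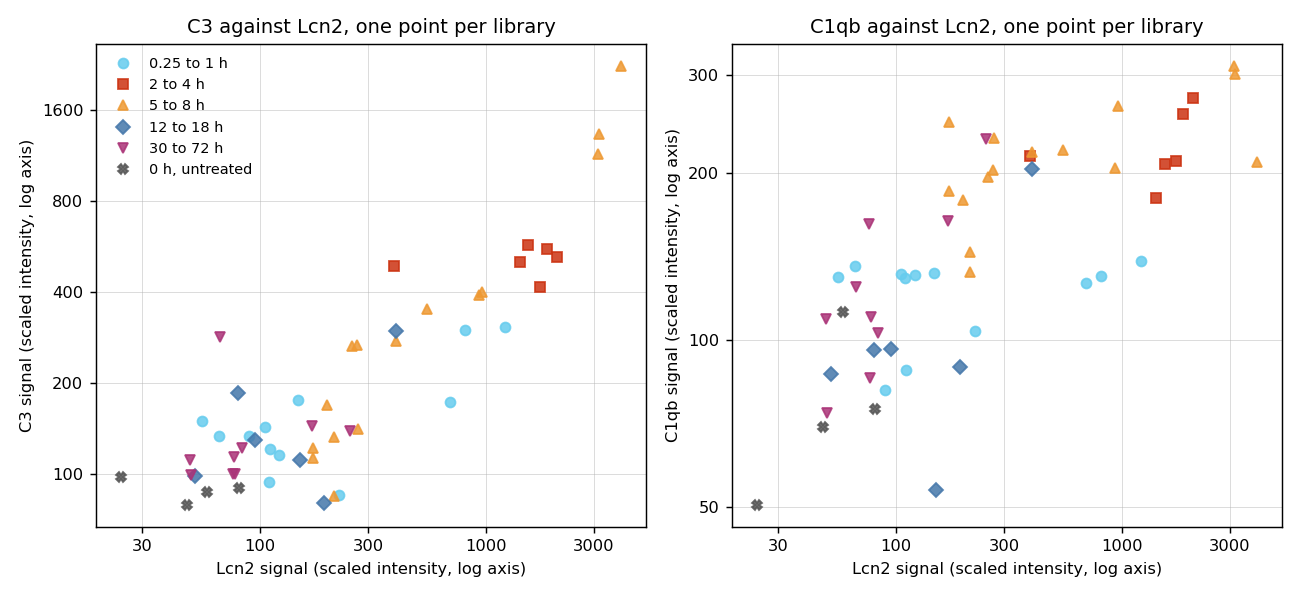
C3 (left) and C1qb (right) against Lcn2 on the main array type, signals on log axes, 1 point per library, marked by window. C3 climbs with Lcn2 up to the 3 libraries at 1149 to 2244, and C1qb also climbs over the 52 libraries (r = 0.74), from 50.5 to 311.

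Some markers of other cells differed from 0 h in the same windows. Of 18 macrophage marker genes, 12 are on the main type and all 12 were tested. From 2 to 4 h 4 of them passed as higher, where 5.17% of all tested probe sets did: Cd14, an endotoxin co-receptor (1.55), Fcer1g (0.86), Ctss, the protease cathepsin S (0.84), and Lyz2, lysozyme (0.41). The median of the 12 was 0.17, where the median of all tested probe sets was -0.07. From 5 to 8 h Ctss, Fcer1g and Lyz2 passed, where 4.98% of all tested did, with a median of 0.16 for the 12 and -0.03 for all tested. A pair of defining genes did not pass in either window: Cd68, a lysosomal protein of macrophages, differed by 0.49 and 0.15, and Csf1r, the receptor for macrophage growth factor, by -0.13 and 0.16. The summed signal of the 12 was 5220 to 6295 from 2 to 4 h and 4118 to 6286 from 5 to 8 h, against 4432 to 4913 at 0 h. From 30 to 72 h, when the C1q chains did not pass, it was 5465 to 6521. Set against 30 to 72 h, the median difference of the 12 was -0.10 from 2 to 4 h and -0.20 from 5 to 8 h. For all tested probe sets it was -0.07 and -0.03. From 5 to 8 h against the first hour the median was -0.17 for the 12 and -0.01 for all tested. Within times C1qb had r = 0.69 with Cd68, and over the 17 time means -0.04. S100a9, the 1 tested of 7 neutrophil markers, passed the filter through its later libraries only, with a mean signal of 235 from 2 to 4 h and 78.1 from 5 to 8 h, against 11.6 at 0 h. The summed signal of the 3 on the array was 260 to 581 and 60 to 1061, against 40 to 54 at 0 h. The part of these cells in the C1q and C3 differences was not tested.

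Of 6 liver markers, 5 are on the main type, with a summed signal of 265 to 1345 from 2 to 4 h, 257 to 471 from 5 to 8 h and 297 to 544 from 12 to 18 h, against 197 to 271 at 0 h. Alb, which encodes albumin, did not pass the filter on its mean, at 14.3 to 108 in every library of the main type but library 2 at 2 h, where it was 793. In that library Cfd, the complement factor D gene that marks fat cells, was 135, against 28.8 and 32.9 in the other 2 libraries at 2 h, and C3 was the lowest of the 3. Of the 5, 2 were tested, with a median difference of 0.63 from 2 to 4 h, 0.78 from 5 to 8 h and 0.89 from 12 to 18 h. In each window 1 of the 2 passed as higher, where 5.17%, 4.98% and, in either direction, 0.389% of all tested probe sets did. It was Apoh, which encodes a plasma protein that binds phospholipids, at 1.18, 1.47 and 1.53. Ttr, another liver marker, had a median signal of 52.1 at 2 h and 47.2 at 4 h, against 54.8 at 0 h. In library 2 at 2 h Ttr was 143, the highest of the main type, against 49.6 and 52.1 in the other 2. On the second type, library 2 at 2 h had 120 for Ttr and 128 for Cfd, against at most 54.4 and 8.19 at 0 h. Alb in that library of the second type lay within its range at 0 h. The part of liver transcripts in the C1q and C3 differences was not tested. Of 12 acute-phase protein genes, all on the main type, 4 were tested. Cp, with untreated signals well above the filter, was higher by 1.25 from 2 to 4 h and by 1.10 from 5 to 8 h. The other 3 average below the filter signal of 52.3 at 0 h and are given as levels: from 2 to 4 h the mean was 1687 for Fga, 715 for Fgg and 1334 for Lcn2, against 36.3, 19.0 and 48.7 at 0 h.

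Among the other complement genes a few passed in each direction. Of 46 further complement genes, 29 are on the main type and 16 were tested. From 2 to 4 h 4 were higher and 2 lower, with a median difference of 0.03, where 5.17% of all tested probe sets passed as higher, 4.8% as lower and the median was -0.07. The 4 higher ones were the partners of C1q and its inhibitor, and clusterin. C1s and C1r, the proteases that C1q activates, were higher by 0.94 (adjusted p = 0.0029) and 0.84 (adjusted p = 0.0112). Serping1, which encodes the C1 inhibitor that stops both proteases, was higher by 0.88 (adjusted p = 0.0118). Clu, which encodes clusterin, an inhibitor of the terminal complex, was higher by 0.85 (adjusted p = 0.0395). The 2 lower ones were Mbl2, a lectin pathway recognition protein, at -0.86 (adjusted p = 0.0394), and C8b, a terminal component, at -0.63 (adjusted p = 0.014).

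From 5 to 8 h C1s was higher by 0.79 (adjusted p = 0.0042), and Masp1, a lectin pathway protease, was lower, at -0.56 (adjusted p = 0.02), where 4.98% of all tested probe sets passed as higher and 4.73% as lower. A second tested probe set of Masp1 differed by -0.03. C1r at 0.32, Serping1 at 0.42 and Clu at 0.29 did not pass. Mbl1 (-0.52), Cfp, the properdin gene (-0.19), Cd55 (0.11), Cr1l (-0.01), C9 (-0.11) and Cpn1 (-0.03) did not pass either, nor did C1qbp (-0.24), Calr (0.03) and Lrp1 (0.31), whose products bind C1q or its collagen tail. The median of the 16 was -0.02. No complement gene of the list passed against 0 h in the first hour, from 12 to 18 h or from 30 to 72 h. Genes below the filter included Cfd, Cfi, C4bpa, C3ar1, the C3a receptor, C5ar1 and Itgam, a chain of the receptor for cleaved C3.

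On the second type 22 of the 46 genes are present and 12 were tested. At 2 h 2 passed, both higher: Serping1 by 0.84 (adjusted p = 0.031) and Clu by 1.75 (adjusted p = 0.0114). The median of the 12 was 0.13, against -0.07 for all tested probe sets, and at 6 h 0 of 12 passed with limma. C1s differed by 0.30 and C1r by -0.03 at 2 h, neither past the threshold. The C1r difference of the main type, which pools 2 and 4 h, was not seen at 2 h with this probe set.

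**Figure D5:**
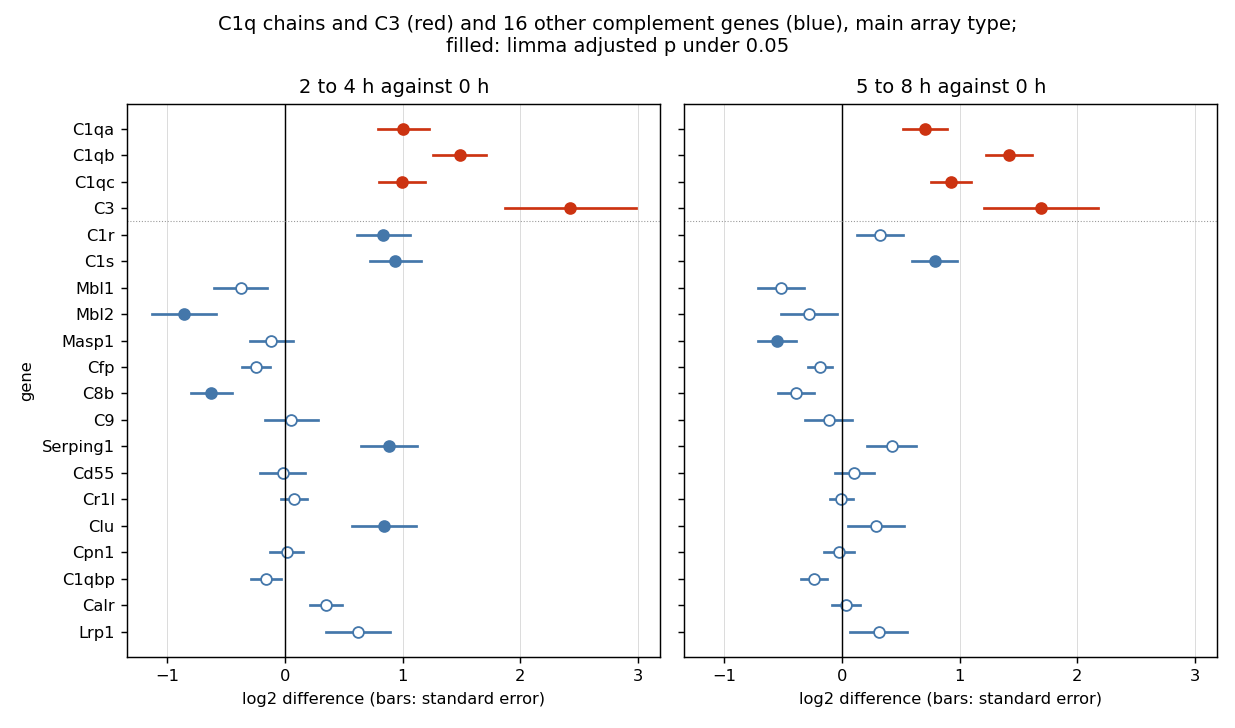
Log2 difference from untreated kidney, with its standard error, from 2 to 4 h (left) and from 5 to 8 h (right) on the main array type for C1qa, C1qb, C1qc and C3 (red) and 16 other complement genes (blue). Filled points have an adjusted p under 0.05: from 2 to 4 h the 4 red genes, C1r, C1s, Serping1 and Clu to the right of 0 and Mbl2 and C8b to the left.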

How the data were processed

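Kidney RNA was measured on Affymetrix arrays of 2 types. The authors deposited 1 scaled intensity per probe set and array; which algorithm made it was not given in the sources used here. The 2% trimmed mean of the deposited intensities was 150.03 to 150.04 on every array of the main type and 150.19 to 150.23 on the second, so each type was scaled separately and was tested separately here. No array columns were identical. Control probe sets (57 and 59) were left out. The 2 arrays of library 1 at 5 h were averaged.

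Intensities were taken as log2 after adding the 10th percentile (7.63 on the main type, 3.56 on the second). These log2 values were computed from the deposited intensities. Probe sets with a mean below the 40th percentile (signal 52.3 and 25.3) were left out, leaving 9520 and 5244. Contrasts between windows of times were fitted with limma 3.58.1 in R 4.3.3 with Benjamini-Hochberg adjustment over all tested probe sets at 0.05. The script was checked on simulated data. The number of arrays limits precision.

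The annotation gave 1 symbol for 12783 probe sets of the main type, several for 312 and none for 2771, and on the second 7006, 308 and 1426. Symbols were updated through the GRCr8 gene table by gene ID for 12748 and 6985 probe sets and by accession for 2 and 0, and 33 and 21 kept the file's symbol. A gene on a list was represented by its brightest probe set. Genes named beside the members were those of the lists and, for each member, the 5 most correlated genes. Members, lists and motifs were chosen with earlier results of these data known. Promoter sequences are from RefSeq, GRCr8.

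Same-numbered libraries of different times were compared by the correlation of their deviations from the time means. On the main type it ran from -0.528 to 0.489 over 408 pairs, 153 of them over 0.1, so numbers were not taken to pair the samples. On the second type all 9 pairs lay between 0.145 and 0.278, which is weak and does not establish that the numbers pair the samples. The values reported are without a block for number. Adding the block changed no call on a C1q or C3 probe set of that type. Alternatives were a constant 4 times as large, no filter, quantile normalization, median centring, array weights, robust moderation, the replicate block, leaving out arrays of title letter b or c (the labels do not explain it), a fit of only the times compared, and leaving out each library. The libraries that stand apart, by a median correlation more than 3 median absolute deviations below the rest, and the partner array alone were added after seeing the data.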

Additional observations from a re-analysis of the deposited data

Results flagged for a closer look

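Dixon's test at the 95% level was applied to the log2 levels of the 4 untreated libraries of each of the 11 probe sets. By chance about 1 in 20 such groups would be flagged. It set apart 2 values. For C1qa on the main type, untreated library 3 had a signal of 79.0, where the other 3 had 163 to 176. On the log2 scale its gap to the nearest was 0.903 of the range, above the critical value for 4 samples. The C1qa difference from 5 to 8 h against 0 h rests on this library, as given above. For the C3 probe set X52477_at on the second type, untreated library 2 had a signal of 9.12, where the other 3 had 23.1 to 25.2. All 4 of these C3 values lie below the filter signal of 25.3. The other C3 probe set of that type had 6.27 in the same library, the highest of its 4.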

How the results depend on the processing

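Direction and side of the threshold held in 2151 of 2280 fits of a single result that left out 1 library and in 571 of 611 under the other settings. The calls on C1qa, C1qb, C1qc and C3 from 2 to 4 h against 0 h, and those on C1qb and C1qc from 5 to 8 h against 0 h, were lost under none of these. Limits are the 4 untreated libraries, which every comparison with 0 h shares, the untreated C3 values below the filter on the second type, and calls close to the threshold. The cause of the changes below was not tested.

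In the window from 5 to 8 h against 0 h, C3 was lost with the replicate block (1.69, adjusted p = 0.061) and in a fit of only the times compared (1.69, adjusted p = 0.15), which also lost C1qa (0.71, adjusted p = 0.0579) and left 2 of the 4 calls. From 2 to 4 h against 30 to 72 h, C1qb was lost without arrays of letter b or c (0.66, adjusted p = 0.0737), which left 1 call where the main fit had 3. C1qc was lost there without the filter (0.45), with quantile normalization (0.42), without letters b or c (0.41) and without the libraries that stand apart (0.39). C1qa passed there with median centring (0.53), array weights (0.39), the replicate block (0.47) and only the times compared (0.47). In the comparison of 5 to 8 h with 30 to 72 h, C3 was lost without letters b or c and with only the times compared (both 1.20). C1qc was lost there with array weights (0.26), without letters b or c (0.30) and without the libraries that stand apart (0.32). Array weights turned C1qa to -0.035, and leaving out letters b or c left 1 call.

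In the comparison of 5 to 8 h with 0.25 to 1 h, C3 was lost without the filter (0.98), with array weights (0.62), without letters b or c (0.97), with only the times compared (0.98) and without the libraries that stand apart (0.58). C1qc was lost with array weights (0.29), without letters b or c (0.34) and without the libraries that stand apart (0.28), each of which left 1 call, and array weights turned C1qa to -0.029. For the F test, the adjusted p of C3 was 0.0568 with 4 times the constant, 0.0725 without the filter, 0.0518 with quantile normalization, 0.0792 with robust moderation, 0.0836 with the replicate block and 0.297 without letters b or c. That of C1qa was 0.0702 without the filter, 0.0516 with quantile normalization, 0.211 without letters b or c and 0.0734 without the libraries that stand apart. No filter, quantile normalization and leaving out letters b or c each left 2 of 4 calls. On the second type, the C3 probe set M29866_s_at was at 2.14 with array weights at 6 h against 0 h, where untreated values lie below the filter, and between 6 h and 2 h they turned C1qc to 0.035, while leaving out letters b or c turned C1qb (X71127_g_at) to -0.20. The replicate block changed no other call on C1qa, C1qb, C1qc or C3.

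Leaving out 1 library at a time, C3 ranged from 1.44 to 1.84 and C1qa from 0.45 to 0.81 from 5 to 8 h against 0 h, and C1qa from -0.062 to 0.30 from 12 to 18 h against 0 h. Against 30 to 72 h, C1qc ranged from 0.36 to 0.51 and C1qa from 0.37 to 0.53 from 2 to 4 h, C1qc from 0.29 to 0.43 from 5 to 8 h, and C3 from -0.19 to 0.26 from 12 to 18 h. Against 0.25 to 1 h, C3 ranged from 0.72 to 1.12 and C1qc from 0.29 to 0.39 from 5 to 8 h, with 1 to 3 calls. The adjusted p of the F test ranged from 0.00501 to 0.0874 for C3 and from 0.0136 to 0.0985 for C1qa, with 2 to 4 calls. On the second type the C3 probe set M29866_s_at, a description with no test, ranged from 1.19 to 2.84 at 6 h against 0 h. Between 6 h and 2 h it ranged from -3.66 to -2.01 and C1qc from -0.32 to 0.057.

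Over all probe sets, array weights gave 146 calls in place of 63 in the first hour against 0 h, 2403 in place of 949 from 2 to 4 h, 65 in place of 37 from 12 to 18 h and 1 in place of 0 from 30 to 72 h. They gave 3326 in place of 1850 from 2 to 4 h and 157 in place of 87 from 12 to 18 h against 30 to 72 h, and 4607 in place of 1535 for the F test. The replicate block gave 35 in the first hour, and only the times compared gave 21 from 12 to 18 h. Leaving out letters b or c gave 872 from 2 to 4 h, 1277 in place of 2497 from 5 to 8 h and 47 from 12 to 18 h against 30 to 72 h, and 916 for the F test. On the second type, 514 calls at 2 h against 0 h became 1392 without letters b or c and 338 with only the times compared. At 6 h against 0 h, 123 became 254 with array weights, 219 without letters b or c and 217 with only the times compared. Between 6 h and 2 h, 75 became 144, 938 and 14 under the same settings, and the 382 of the F test became 1261 without letters b or c.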
